A study of Rattus norvegicus with 24 samples.

Results

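The data described here compare cardiac fibroblasts of 20-month-old rats with those of 10-13-week-old rats when both were kept in high glucose, 33 mM, for 24 hours. The libraries were chosen by their labels: 3 at 20 months and 3 at 10-13 weeks, 6 of the 24 in the series. The whole series holds primary rat cardiac fibroblasts of 4 ages, each in 5.5 mM glucose, called normal glucose here, or in 33 mM glucose, with 3 libraries in each of 8 groups. Both groups were grown in DMEM with 10% fetal bovine serum and then plated in DMEM at the stated glucose level, and total RNA was sequenced. The labels name no strain, sex, passage number or genetic change, and they do not say whether the 3 libraries of a group came from separate animals. The p-values below therefore measure a spread between libraries, which the main fit estimated over all 24 of the series taken as independent. A difference in passage or preparation between the ages cannot be told apart from age.

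Cardiac fibroblasts make and remodel the collagen-rich matrix of the heart and divide readily in culture. Cells that have divided many times or been stressed can leave the cell cycle for good, a state called senescence, in which inhibitors of cyclin-dependent kinases such as p16 and p15 hold the retinoblastoma proteins in the form that keeps replication genes silent. Glucose enters fibroblasts mainly through the transporter Slc2a1, feeds glycolysis and, through the transcription factor pair Mlxip and Mlx, induces Txnip and Arrdc4. Cholesterol synthesis is set by Srebf2, a membrane-held transcription factor that Insig1 retains in the endoplasmic reticulum when sterols are plentiful.

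Total counts of the 6 libraries lay between 18874548 and 23360754. The first principal component held 65.1% of their variance and put the 10-13 weeks libraries at -45.6 to -40.7 and the 20 months libraries at 35.7 to 48.3, with 20 months replicate 2 nearest to the younger group. A large part of the measured transcriptome differed between the ages in high glucose. Of 13806 genes tested, 5123 (37.1%) passed edgeR's quasi-likelihood test at an adjusted p under 0.05 and are described as called, 2531 of them higher (18.3%) and 2592 lower (18.8%) at 20 months. More than 2-fold changes were called for 703 genes that rose and 720 that fell. The 3 libraries of each age did not overlap for 6549 genes (47.4%). The median log2 change over all tested genes was 0.0035, and these shares are the background for each list below. In normal glucose the same ages gave 4985 called genes.

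**Figure D1:**
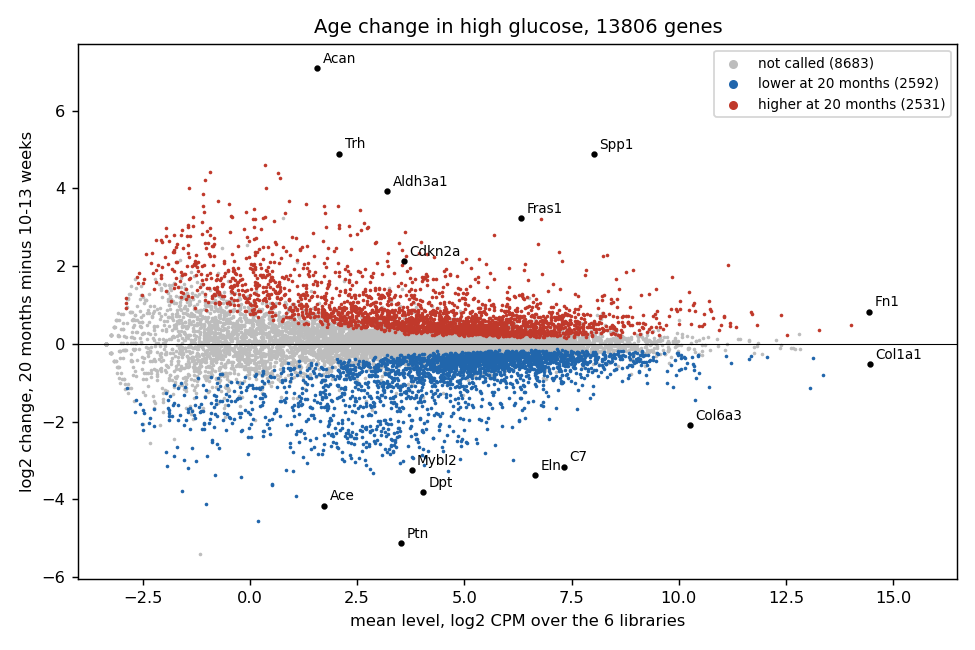
Log2 change between 20 months and 10-13 weeks in high glucose against the mean log2 CPM over the 6 libraries; each point is 1 of 13806 genes, coloured by its call. Changes past the threshold lay on both sides in similar number, 2531 higher and 2592 lower. The named genes ran from Acan (7.09) to Ptn (-5.13), and the lowest change of all tested genes was -5.42.

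Of the 14 fibroblast markers tested, 0 were called higher and 7 lower, among them the receptor Pdgfra and the collagen-binding proteoglycan Lum, and the summed markers fell from 42930-49490 to 29160-34280 CPM (counts scaled to one common depth, by use of the plain library total for these sums and of the TMM-scaled total for single genes). Vim (4529-4976 and 4772-5398 CPM) and Thy1 (316.2-358.9 and 326.2-499.7 CPM), both typical of fibroblasts, were present in every library and overlapped between the ages. Col1a2 was listed at 0 in all 6 and is not described further. In bulk samples fewer cells of a type and less RNA per cell cannot be told apart.

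Summed markers of each other cell type lay below the fibroblast sum in every library. Summed Schwann cell markers lay at 17.17-22.61 CPM at 10-13 weeks and at 62.97-72.63 CPM at 20 months, with 3 of 8 tested markers called higher, Mbp and S100b among them, and the defining factor Sox10 between 0 and 0.325 CPM. Summed endothelial markers lay at 109.5-136.3 and 58.54-90.23 CPM, with 8 of 11 called lower. Epicardial and mesothelial markers lay at 68.72-79.99 and 84.78-166.3 CPM, with 4 of 10 called higher and Wt1 lower, and adipocyte markers at 249.9-423.9 and 509.1-640.8 CPM, mostly Lpl, with Adipoq at 0 in all 6 libraries. Macrophage and leukocyte markers overlapped between the ages at 95.87-186.4 and 110.4-235.9 CPM, and 2 of 19 were called higher. Smooth muscle and pericyte markers lay at 1682-2111 and 1357-1574 CPM, mostly Pdgfrb. Cardiomyocyte markers lay at 662.5-721.1 and 453.4-520.1 CPM, mostly Atp2a2, with Myh7, Myl2, Myl7, Ryr2, Mb and Ckm at 0. Lymphocyte markers reached 2.207 CPM and erythroid markers 0.1284 CPM at most. The part of these other cells in the results below was not tested.

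**Figure D2:**
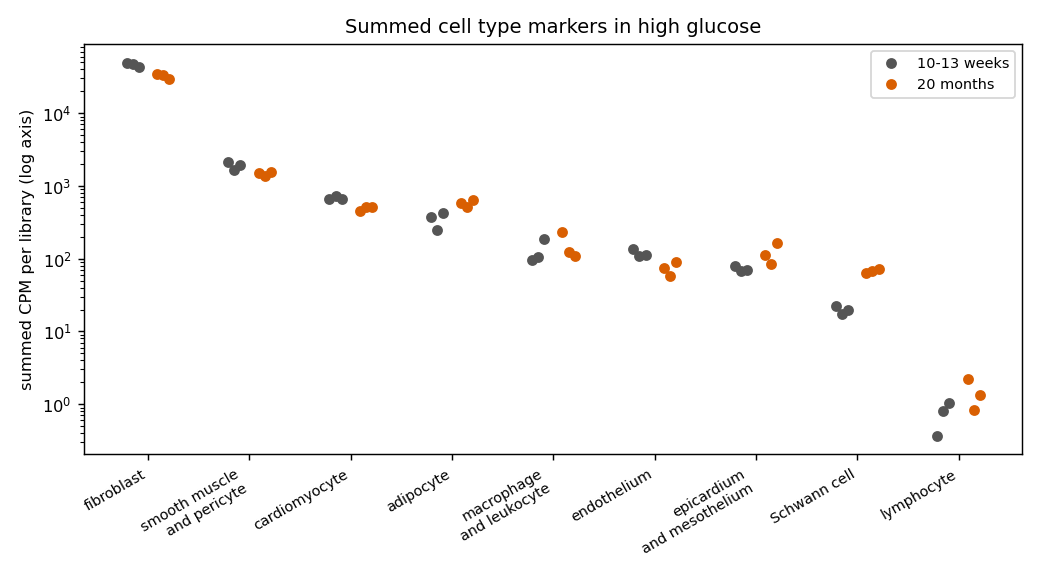
Summed level of each cell type's markers in each of the 6 high glucose libraries, in CPM of the plain library total on a log axis; each point is 1 library. Fibroblast markers lay far above all others at both ages, and Schwann cell markers were separate between the ages, at 17.17-22.61 against 62.97-72.63 CPM.

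The genes of cell division fell together. All 32 tested genes of replication licensing and the replication fork were called lower (median log2 change -1.69), as were all 35 of the spindle, kinetochore and cytokinesis (median -2.51). Among cyclins, cyclin-dependent kinases and cell cycle transcription factors, 19 of 23 were called lower and 1 higher (median -1.48). Condensin, cohesin and the chromatin genes of dividing cells gave 28 of 32 lower and 0 higher (median -1.53), and DNA repair 22 of 29 lower and 0 higher (median -1.48).

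Mki67 (ENSRNOG00000028137, chromosome 1, 207993895-208020454 on Rnor_6.0), whose protein coats mitotic chromosomes and marks cycling cells, stood at 137, 168 and 107 CPM at 10-13 weeks and 14.4, 39.1 and 14.4 CPM at 20 months. It gave a log2 change of -2.59 (SE 0.567, adjusted p = 0.00182), and the highest older library lay well below the lowest younger one. Mcm6 (ENSRNOG00000003703, chromosome 13, 45042882-45068077), a subunit of the helicase that unwinds DNA at the fork, stood at 79.3, 107 and 118 CPM at 10-13 weeks and 14.9, 32.8 and 18.9 CPM at 20 months. The groups did not overlap, and the log2 change of -2.19 (SE 0.375, adjusted p = 0.000274) belonged to the replication genes whose adjusted p was smallest, together with the licensing factor Cdt1 (-2.61), the helicase cofactor Cdc45 (-2.54) and the origin recognition subunit Orc1 (-2.58).

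The genes of mitosis had the lowest list median. Plk4 (ENSRNOG00000011654, chromosome 2, 127686925-127705516), the kinase that starts centriole duplication, stood at 32.2, 39.4 and 37 CPM at 10-13 weeks and 3.88, 9.34 and 6.22 CPM at 20 months, a log2 change of -2.46 (SE 0.467, adjusted p = 0.000626). Birc5 (ENSRNOG00000050819, chromosome 10, 106856097-106864413), or survivin, part of the complex that checks chromosome attachment, stood at 17, 12.7 and 14.6 CPM at 10-13 weeks and 0.744, 3.35 and 1.68 CPM at 20 months, a log2 change of -2.87 (SE 0.556, adjusted p = 0.00074). In both, 20 months replicate 2 was the highest of the older libraries and still below all 3 younger ones. The centromeric histone Cenpa and the spindle checkpoint protein Mad2l1 fell as well, by 2.74 and 1.65 on the log2 scale. Without 20 months replicate 2, the counts called lower were again 32 of the replication and 35 of the spindle list, and 18 of the cyclin list.

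Upstream of these, the transcription factor Mybl2, which drives late cell cycle genes, fell from 39.8, 49.7 and 45.1 to 3.61, 7.76 and 2.38 CPM, a log2 change of -3.26 (SE 0.568, adjusted p = 0.00032). Cdk2, the kinase of S phase entry, fell by 1.67 on the log2 scale, and the phosphatase Cdc25a that activates it by 0.86. The centrosomal kinase Nek2 was among the 10 largest decreases of genes with a mean log2 CPM of at least 1 (-3.26). The only gene called higher in the cyclin list, where 3 were not called, was Ccnd2, a D-type cyclin that partners Cdk4 and Cdk6. It stood at 54.4, 71.1 and 48.6 CPM at 10-13 weeks and 124, 121 and 159.6 CPM at 20 months, a log2 change of 1.22 (SE 0.215, adjusted p = 0.000348). All 3 older libraries lay above all 3 younger ones. Among chromatin genes, the condensin subunit Ncapg2 (-2.003), the hemimethylated DNA reader Uhrf1 (-2.46) and the maintenance DNA methyltransferase Dnmt1 (-1.49) fell. Among repair genes the mismatch protein Msh6 (-0.88), the glycosylase Ung (-0.98) and the helicase Blm (-2.23) fell, and reads of Msh6 may include those of the overlapping gene Fbxo11.

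Promoters of the genes that fell together are shown because cell cycle genes are known to carry particular short elements near their start. The windows come from RefSeq on the build GRCr8, run 5′ to 3′ along the gene's strand, and hold up to 24 bases on either side of the match. In the mitotic genes the capitals mark the cell cycle gene homology region, searched as TTTGAA on both strands, so that TTCAAA is the same element on the other strand.
Plk4, chr2:125730474-125730527, plus strand: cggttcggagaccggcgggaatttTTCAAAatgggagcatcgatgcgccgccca
Birc5, chr10:103572114-103572167, plus strand: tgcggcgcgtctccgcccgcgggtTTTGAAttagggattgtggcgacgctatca
Cenpa, chr6:31431639-31431692, minus strand: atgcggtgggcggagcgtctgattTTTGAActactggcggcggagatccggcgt
Mad2l1, chr4:97236512-97236558, plus strand: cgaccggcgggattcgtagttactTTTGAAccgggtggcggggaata
Mki67, chr1:199952663-199952716, minus strand: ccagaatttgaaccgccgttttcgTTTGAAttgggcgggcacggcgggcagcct
In the replication genes they mark the E2F element, searched as TTTCCCGC or TTTGGCGC on both strands.
Mcm6, chr13:42404460-42404515, minus strand: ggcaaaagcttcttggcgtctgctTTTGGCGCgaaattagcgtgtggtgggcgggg
Cdt1, chr19:67529257-67529298, plus strand: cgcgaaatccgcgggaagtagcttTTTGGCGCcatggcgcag
Mcm5, chr19:13488781-13488836, plus strand: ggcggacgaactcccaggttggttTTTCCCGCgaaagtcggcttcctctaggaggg
Mki67 holds 2 matches, the other of which stands in lower case in the same window, and its capitals begin at -99 from the start, whereas those of Plk4 and Mad2l1 begin at 18 and 27 after it. Mcm5, another helicase subunit (log2 change -2.45), was added after its values were seen to show the other E2F letters.

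Over the whole promoter window, 250 bases before to 50 after the start, TTTGAA was present in 22 of the 30 spindle list promoters matched (73.3%), against 11.5% of the 9570 promoters of tested genes and 18.3% of all 33469 promoters. The E2F letters were present in 12 of 26 replication promoters (46.2%), against 2.87% of promoters of tested genes and 1.45% of all. The E2F letters were in 0 of 30 spindle promoters, and 2 of 26 replication promoters held TTTGAA (7.69%). The letters CCAAT, which can share at most 1 base with either motif, were in 70% of the spindle and 69.2% of the replication promoters, against 37.3% of those of tested genes. Over all calls, E2F letters were in 6.04% of the promoters of genes called lower and in 1.84% of those called higher. A match describes the letters only and is no evidence of binding.

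**Figure D3:**
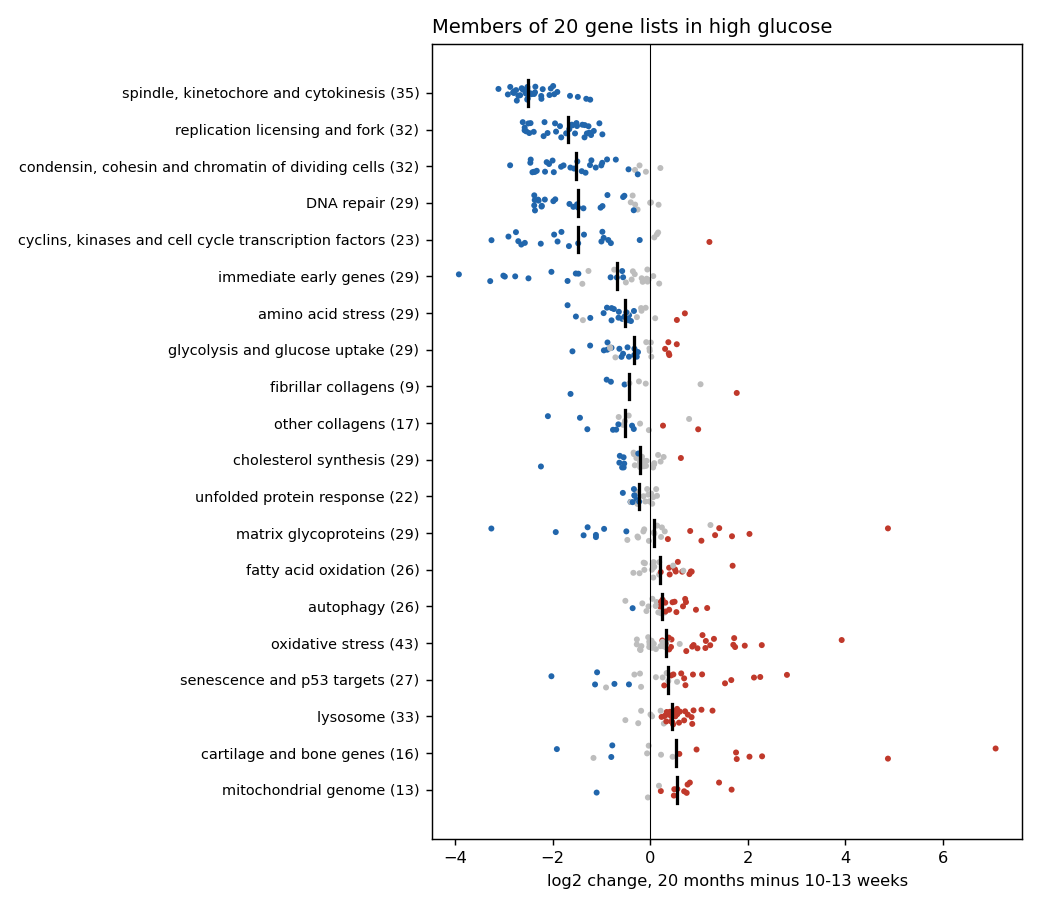
Log2 change between 20 months and 10-13 weeks in high glucose for each tested member of 20 gene lists; each point is 1 gene, blue where called lower, red where called higher and grey where not called, the black bar is the list's median, and the number tested stands in parentheses. Spindle genes lay lowest (median -2.51), and the lysosome list had 26 of 33 members called higher and 0 lower.

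Inhibitors of the cell cycle were higher at 20 months. In the list of senescence genes and p53 targets, 13 of 27 were called higher and 5 lower, with a median log2 change of 0.37. Cdkn2a (ENSRNOG00000059837, chromosome 5, 107823330-107841175), which encodes p16 and Arf, stood at 7.37, 5.23 and 4.7 CPM at 10-13 weeks and 30.3, 21 and 25.2 CPM at 20 months, a log2 change of 2.13 (SE 0.202, adjusted p = 5.13e-07). Its neighbour Cdkn2b (ENSRNOG00000006735, chromosome 5, 107845951-107858104), which encodes p15, stood at 21.2, 12.8 and 26.4 CPM at 10-13 weeks and 127, 112 and 185 CPM at 20 months, a log2 change of 2.81 (SE 0.51, adjusted p = 0.000448). The ages did not overlap for either. Gadd45a, a stress sensor and p53 target, rose by 1.66 and Glb1, the lysosomal galactosidase behind the senescence stain, by 0.70 on the log2 scale. Cdkn1a, which encodes p21 and was named after its values were seen, stood at 53.4, 106 and 83.2 CPM at 10-13 weeks and 214, 232 and 257 CPM at 20 months (log2 change 1.54, adjusted p = 0.00157).

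Few of the secreted factors often reported from senescent cells rose: of 32 tested cytokines and growth factors, 1 was called higher and 6 lower (median -0.33). The share called higher was 3.12%, beside 18.3% of all genes tested, and the share called lower, 18.8%, equalled that of all genes. Cxcl12, the chemokine that retains blood progenitors, stood at 320.4, 406 and 505 CPM at 10-13 weeks and 116, 219 and 132 CPM at 20 months, a log2 change of -1.40 (SE 0.374, adjusted p = 0.00701). Hgf, the hepatocyte growth factor, fell by 1.36, the cytokine Il11 by 1.47 and the urokinase receptor Plaur by 1.04 on the log2 scale. Il6 was not among the calls (log2 change 0.27, adjusted p = 0.723) and was named after its values were seen. Without 10-13 weeks replicate 3, in which Il11 was highest, 3 members were called lower and Il11 was not (adjusted p = 0.0594).

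The collagens fell in part. Of 9 fibrillar collagens tested, 4 were called lower and 1 higher (median -0.43), and of 17 other collagens 8 were lower and 2 higher (median -0.52). Col1a1 (ENSRNOG00000003897, chromosome 10, 82745801-82762789), the main chain of fibrillar collagen I, stood at 29070, 28390 and 24090 CPM at 10-13 weeks and 19400, 19550 and 17710 CPM at 20 months, a log2 change of -0.53 (SE 0.0894, adjusted p = 0.000213). Col3a1, the chain of collagen III, stood at 14440, 13520 and 14020 CPM at 10-13 weeks and 8767, 8672 and 6574 CPM at 20 months, a log2 change of -0.81 (SE 0.13, adjusted p = 0.00013). Both sets of libraries were separate. Col5a1, a regulator of fibril diameter, fell by 0.89. Col6a3, a chain of the pericellular collagen VI, stood at 3249, 2383 and 2211 CPM at 10-13 weeks and 767, 399 and 665 CPM at 20 months, a log2 change of -2.10 (SE 0.31, adjusted p = 7.26e-05). The fibril-associated Col12a1 fell by 1.44 and the basement membrane chain Col4a1 by 0.37. Col11a1, a chain of cartilage collagen XI, rose by 1.78 and Col8a1, a network-forming collagen of vessels, by 0.99 on the log2 scale.

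Among 24 genes of collagen processing and crosslinking, 8 were called lower and 1 higher (median -0.08), including the prolyl hydroxylase subunit P4ha2 (-0.73) and the collagen chaperone Serpinh1 (-0.50). The called-higher gene was Adamts2, the protease that removes the N-terminal propeptide (0.56). The 8 lower became 5 without 10-13 weeks replicate 1 or 3 and without 20 months replicate 2 or 3, and 5 with upper quartile scaling. Summed fibroblast markers moved the same way as these lists. They are mostly Col1a1 and Col3a1, which the fibrillar collagen list also holds, so the shared direction is no separate evidence. The part of cell composition in these lists was not tested.

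Elastic fibre genes fell more often than they rose. Of 15 tested, 7 were called lower and 3 higher (median -0.31). Eln (ENSRNOG00000001469, chromosome 12, 24978483-25021863), the gene of elastin, stood at 532, 153 and 382 CPM at 10-13 weeks and 31.6, 50.9 and 19.7 CPM at 20 months, a log2 change of -3.38 (SE 0.58, adjusted p = 0.000277). The younger libraries spread widely, with replicate 2 lowest, yet it lay above all older ones. Mfap5, a microfibril glycoprotein, fell by 1.65, Ltbp4, a latent TGF-beta binding protein needed for elastic fibres, by 1.97, and Emilin2, a glycoprotein of elastin interfaces, by 1.79. Dpt, or dermatopontin, a small protein that binds collagen and decorin, fell from 74.3, 27.2 and 98 to 4.78, 5.79 and 3.3 CPM, a log2 change of -3.82 (SE 0.465, adjusted p = 1.14e-05).

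Adhesive glycoproteins moved in both directions, with 8 of 29 called higher and 8 lower (median 0.07). Fn1 (ENSRNOG00000014288, chromosome 9, 78900103-78969078), fibronectin, stood at 15360, 17990 and 16990 CPM at 10-13 weeks and 27500, 32860 and 28570 CPM at 20 months, a log2 change of 0.82 (SE 0.119, adjusted p = 4.5e-05). Spp1 (ENSRNOG00000043451, chromosome 14, 6673686-6679901), osteopontin, a secreted ligand of integrins, stood at 42.3, 54.3 and 49.9 CPM at 10-13 weeks and 1134, 1250 and 1935 CPM at 20 months, a log2 change of 4.88 (SE 0.398, adjusted p = 1.6e-07). In both genes every older library was above every younger one. Ecm1, a secreted binding partner of perlecan, rose by 1.42, and Nov, a matricellular protein of the CCN family, by 1.33. Postn, periostin, a marker of activated cardiac fibroblasts, stood at 3201, 2682 and 3497 CPM at 10-13 weeks and 4019, 3094 and 2847 CPM at 20 months and was not called (log2 change 0.09, SE 0.206, adjusted p = 0.775). Its groups overlapped.

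Among 23 proteoglycans and hyaluronan genes, 5 were called higher and 7 lower (median -0.23). Acan (ENSRNOG00000028992, chromosome 1, 140762758-140824441), aggrecan, the large proteoglycan of cartilage, had the largest increase of the named genes, from 0.163, 0.436 and 0 to 22.5, 39.7 and 54.8 CPM, a log2 change of 7.09 (SE 0.725, adjusted p = 1.94e-06). It was near 0 in every younger library and above 20 CPM in every older one. The related large proteoglycan Vcan fell by 1.11 and the hyaluronan synthase Has1 fell by 3.43, while the syndecan Sdc2 rose by 0.66 on the log2 scale. Has1 rests on few counts, 180 at 10-13 weeks and 11 at 20 months. Cartilage and bone genes as a list gave 8 of 16 called higher and 3 lower (median 0.53). Besides Acan, Spp1 and Col11a1 the higher ones included Mgp, an inhibitor of calcification (log2 change 2.04), and Alpl, the mineralizing phosphatase (2.30), both named after their values were seen. Matn3, a cartilage matrilin, fell by 1.91, on 77 counts at 10-13 weeks and 16 at 20 months. The master regulators Runx2 (-0.03, adjusted p = 0.916) and Sox9 (0.46, adjusted p = 0.15), also named after their values were seen, did not pass the test. Their part in the cartilage and bone list was not tested.

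Laminins and nidogens of the basement membrane gave 4 of 15 called higher and 3 lower (median 0.12). Lama5, the alpha chain of mature endothelial and epithelial laminins, rose from 127, 100.5 and 130.4 to 430.5, 394 and 503 CPM, a log2 change of 1.89 (SE 0.178, adjusted p = 5.13e-07). Lama2, the alpha chain of muscle basement membrane, fell by 1.08, while Lama1, an embryonic alpha chain, rose by 3.15 from a low level of under 1 CPM. Fras1, a basement membrane protein of embryonic skin and kidney, stood at 34.5, 26.1 and 23.2 CPM at 10-13 weeks and 168, 162 and 461 CPM at 20 months, a log2 change of 3.24 (SE 0.415, adjusted p = 1.9e-05), with 20 months replicate 3 far above the others. Of 27 matrix proteases and inhibitors 7 were called higher and 5 lower (median 0.12). Serpine2, a thrombin inhibitor, rose by 1.59, the collagenase inhibitor Timp2 by 0.72, the lysosomal protease Ctsl by 0.85 and the metalloprotease Mmp19 by 0.58.

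**Figure D4:**
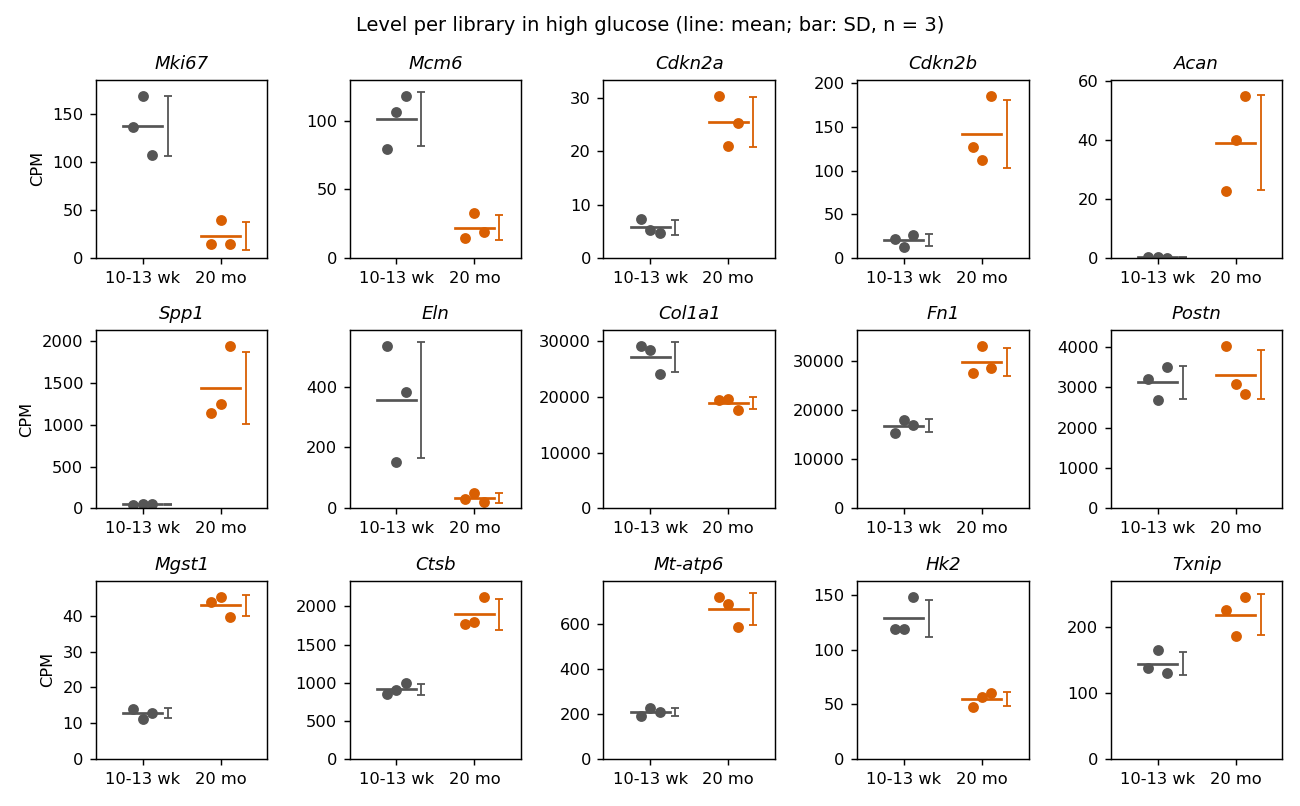
Level of 15 genes in CPM in each high glucose library of 10-13 weeks and 20 months; points are libraries, the line is the mean and the bar to the right the SD (n = 3), and each vertical axis starts at 0. Postn is the panel whose groups overlapped, from 2682 to 4019 CPM.

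Contractile genes changed unevenly: 8 of 25 were called higher and 3 lower (median 0.07). Acta2, smooth muscle actin and the classic myofibroblast marker, stood at 2756, 3094 and 3473 CPM at 10-13 weeks and 4179, 4114 and 4628 CPM at 20 months, a log2 change of 0.47 (SE 0.146, adjusted p = 0.016). Myh11, the smooth muscle myosin heavy chain, stood at 10.7, 15.5 and 14.6 CPM at 10-13 weeks and 54.9, 40.9 and 47.6 CPM at 20 months, a log2 change of 1.81 (SE 0.23, adjusted p = 1.44e-05). The actin-binding Synpo2 rose by 1.62 (41 counts at 10-13 weeks and 135 at 20 months). The intermediate filament gene Des fell by 2.07 (124 and 24 counts). Without 10-13 weeks replicate 1 or 20 months replicate 3, Acta2 missed the threshold (adjusted p = 0.0782 and 0.0592) and 4 contractile genes were called higher, and 5 without 10-13 weeks replicate 2 or 20 months replicate 1. Summed smooth muscle and pericyte markers moved the other way, as given above, but that sum is mostly Pdgfrb. Pdgfrb lay at 1260-1787 CPM at 10-13 weeks and 1053-1085 CPM at 20 months. Of the 11 tested markers in that list 2 were called higher, Myh11 itself among them, and 3 lower. Integrins and focal adhesion genes gave 8 of 30 higher and 7 lower (median 0.07). The laminin-binding integrin Itga7 was up by 1.42 and the focal adhesion protein Zyx down by 0.50. The collagen-binding Itga10 was up by 2.56 on few counts, 8 at 10-13 weeks and 73 at 20 months. The 8 higher calls of this list became 5 without 20 months replicate 3.

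Ligands, receptors and inhibitors of growth factor pathways were mixed. Of the Wnt list, 11 of 30 were called higher and 4 lower (median 0.35). Dkk3, a secreted Dickkopf-family protein, rose from 218, 238 and 231 to 790.1, 735 and 968 CPM, a log2 change of 1.86 (SE 0.18, adjusted p = 6.96e-07). The secreted decoy receptor Sfrp4 rose by 2.22 and the intracellular inhibitor Nkd2 by 0.97, while the Wnt5a receptor Ror2 fell by 0.996. Leaving out 10-13 weeks replicate 3 gave 7 Wnt genes called higher.

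Of 38 TGF-beta, activin and BMP genes, 6 were called higher and 7 lower (median 0.05). The ligand Bmp2 rose by 1.61 and its secreted antagonist Nog by 2.57 on the log2 scale, the inhibitory Smad6 rose by 0.73, and the activin receptor Acvr2a fell by 0.78. Bmp2 rests on 65 counts at 10-13 weeks and 205 at 20 months, and Nog on 35 and 235. Bmp2 was highest in 20 months replicate 2, without which its log2 change was 1.05. The 7 lower calls became 4 without 10-13 weeks replicate 1 and 3 without 10-13 weeks replicate 3 or 20 months replicate 2. In the list of PDGF, FGF, EGF and VEGF genes 9 of 37 were called higher and 9 lower (median -0.14). Pdgfc, a ligand of Pdgfra, rose from 0.108, 0.436 and 0.319 to 8.66, 5.28 and 8.27 CPM, a log2 change of 4.27 (SE 0.487, adjusted p = 3.69e-06). Ptn (ENSRNOG00000011946, chromosome 4, 64239158-64330996), pleiotrophin, a heparin-binding growth factor, had the largest decrease of the named genes, from 90.1, 36.5 and 94.7 to 1.97, 2.89 and 1.14 CPM, a log2 change of -5.13 (SE 0.717, adjusted p = 4.39e-05). The receptor Fgfr1 fell by 0.71.

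The insulin-like growth factor axis had 4 of 20 called higher and 5 lower (median -0.13). Igf1 stood at 197, 154 and 149 CPM at 10-13 weeks and 86.6, 97.3 and 56.2 CPM at 20 months, a log2 change of -1.06 (SE 0.268, adjusted p = 0.00491). The binding protein Igfbp5, also counted with the senescence genes, rose by 2.26, and Stc2, a secreted inhibitor of the protease that frees IGF, fell by 2.21. Igf2, the fetal growth factor, was under 2 CPM in every library, its groups overlapped, and its call (log2 change 1.79, adjusted p = 0.0355) was lost with limma (adjusted p = 0.196), on leaving out any one of the 10-13 weeks libraries, and without 20 months replicate 3, where the log2 change was 0.78 (adjusted p from 0.00972 to 0.371 over 13 alternatives, of which it passed 8). Without 20 months replicate 1, 3 of the axis were called lower.

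Lysosomal genes rose widely. Of 33 tested, 26 were called higher and 0 lower, with a median log2 change of 0.46. Ctsb (ENSRNOG00000010331, chromosome 15, 46316741-46337612), the protease cathepsin B, stood at 849, 903 and 992 CPM at 10-13 weeks and 1769, 1795 and 2126 CPM at 20 months, a log2 change of 1.05 (SE 0.1, adjusted p = 5.13e-07). Npc2, which hands cholesterol from the lysosome's lumen to its membrane, stood at 373, 379 and 480.4 CPM at 10-13 weeks and 961, 908 and 1123 CPM at 20 months, a log2 change of 1.28 (SE 0.14, adjusted p = 2.45e-06). In both, all 3 older libraries were above all 3 younger ones. Psap, the precursor of the saposins that help digest sphingolipids, rose by 0.89. Tfeb, the transcription factor known to drive lysosomal genes, was named after its values were seen and did not pass the test (log2 change -0.51, adjusted p = 0.0506). Over the alternatives its adjusted p ran from 0.019 to 0.187, and it passed in 5 of 14, DESeq2 among them. The part of Tfeb in the lysosomal changes was not tested. Autophagy genes gave 14 of 26 higher and 1 lower (median 0.24), among them Gabarapl1, a protein of the autophagosome membrane (0.94), the mitophagy kinase Pink1 (1.17) and the cargo receptor Optn (0.72).

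Genes of the response to oxidative stress rose or did not pass the test. Of 43, 21 were called higher and 0 lower (median 0.32). Mgst1 (ENSRNOG00000007743, chromosome 4, 172119331-172134607), a membrane-bound glutathione transferase, stood at 14.1, 11.2 and 12.9 CPM at 10-13 weeks and 43.8, 45.3 and 39.7 CPM at 20 months, a log2 change of 1.74 (SE 0.134, adjusted p = 5.74e-08). The ferritin heavy chain Fth1 stood at 464, 481 and 585 CPM at 10-13 weeks and 1370, 1597 and 2025 CPM at 20 months, a log2 change of 1.71 (SE 0.139, adjusted p = 8.89e-08). The glutathione transferase Gstp1 rose by 1.13 and Taldo1, of the pentose phosphate pathway, by 0.86. Aldh3a1, an aldehyde dehydrogenase, was among the 10 largest increases above the same level, from 3.41, 3.76 and 0.684 to 23.6, 42.9 and 55.3 CPM (log2 change 3.93). Nqo1, a quinone reductase named after its values were seen, rose by 2.29. The Nrf2 gene Nfe2l2 (0.12, adjusted p = 0.279), Gclm (-0.21, adjusted p = 0.308) and Hmox1 (0.32, adjusted p = 0.452), named likewise, did not pass. The part of Nrf2 in the changes of this list was not tested. The antioxidant element, searched as TGACNNNGC on both strands, was in 10 of 33 promoters of the list (30.3%), against 14.9% of those of tested genes. Gclm and Nfe2l2 are among the 10. In the 150 bases nearest the start the shares were 15.2% and 8.33%, and in the 150 bases before it 12.1% and 8.34%. Over all calls the element was in 16.3% of the promoters of genes called higher and 13.7% of those called lower. The promoter of Gstp1 shows the element in capitals.
Gstp1, chr1:210769734-210769790, minus strand, GRCr8: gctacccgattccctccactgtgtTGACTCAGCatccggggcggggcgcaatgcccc

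Genes of the mitochondrial genome were higher, with 10 of 13 called higher and 1 lower (median 0.56), and their share of all counts rose from 3.09-3.36% to 4.58-4.86%. Mt-atp6 (ENSRNOG00000031979, mitochondrial positions 7919-8599), a subunit of ATP synthase, stood at 189, 227 and 210.5 CPM at 10-13 weeks and 721, 689.7 and 585 CPM at 20 months, a log2 change of 1.67 (SE 0.12, adjusted p = 2.45e-08). Mt-atp8, which overlaps it, rose by 1.41, and their reads cannot be split with certainty. Mt-co2, of cytochrome oxidase, stood at 2323, 2553 and 2577 CPM at 10-13 weeks and 4582, 4166 and 4357 CPM at 20 months, a log2 change of 0.81 (SE 0.0877, adjusted p = 2.06e-06). The gene called lower was Mt-nd6 (positions 13543-14061), the only protein gene read from the light strand of mammalian mitochondrial DNA, at 26.2, 67.2 and 44.3 CPM at 10-13 weeks and 18.6, 23.8 and 21.8 CPM at 20 months (log2 change -1.10, adjusted p = 0.00733), and it was named after its values were seen and missed the threshold without 10-13 weeks replicate 2 (adjusted p = 0.0581, with 0.000954 to 0.0374 under the other alternatives). Nuclear genes of the respiratory chain gave 3 of 37 higher and 5 lower (median 0.09), with the cytochrome oxidase subunits Cox8a (0.46) and Cox6c (0.54) higher, and the 5 lower became 2 without 10-13 weeks replicate 3 or 20 months replicate 1 and 3 without 20 months replicate 3, with upper quartile scaling or with only the 6 libraries fitted.

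Genes of glucose use were called lower more often than higher. Of 29 genes of glycolysis and glucose uptake, 16 were called lower and 5 higher (median -0.33). Hk2, the hexokinase that traps glucose in the cell, stood at 119, 119 and 148 CPM at 10-13 weeks and 47.4, 56.6 and 60.3 CPM at 20 months, a log2 change of -1.23 (SE 0.133, adjusted p = 2.06e-06). The transporter Slc2a1 stood at 124, 140.3 and 151 CPM at 10-13 weeks and 67.3, 74.4 and 84.2 CPM at 20 months, a log2 change of -0.88 (SE 0.147, adjusted p = 0.000195). The phosphofructokinase Pfkp fell by 0.59. Txnip, which restrains glucose uptake and is induced by glucose, stood at 138, 165 and 131 CPM at 10-13 weeks and 226, 186 and 246 CPM at 20 months, a log2 change of 0.60 (SE 0.158, adjusted p = 0.00578), whereas its relative Arrdc4 stood at 18.3, 20 and 15.6 CPM at 10-13 weeks and 17.3, 19.8 and 16.2 CPM at 20 months and was not called (log2 change -0.01, adjusted p = 0.955). The list of glucose-responsive, polyol and hexosamine genes had 6 of 22 higher and 2 lower (median 0.23). Akr1b1, the aldose reductase of the polyol pathway, rose by 0.72, Hagh, which clears methylglyoxal, rose by 0.65, and Gfpt2, the entry enzyme of hexosamine synthesis, fell by 1.02.

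Fatty acid oxidation genes gave 11 of 26 higher and 0 lower (median 0.20), such as the dehydrogenases Hadh (0.85) and Etfdh (0.66), while fatty acid synthesis and elongation gave 3 of 32 higher and 12 lower (median -0.20). Among the latter the desaturase Fads2 fell from 161, 174 and 138 to 30.9, 62.4 and 27.6 CPM, a log2 change of -1.96 (SE 0.252, adjusted p = 1.88e-05), and the elongase Elovl5 by 0.47, the acyl-CoA synthetase Acsl1 by 0.72 and the fatty acid carrier Fabp5 by 1.05. Summed adipocyte markers, mostly the lipase Lpl, were higher at 20 months in every library, with Adipoq at 0, and their part in these lists was not tested.

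Amino acid stress genes were mostly called lower. Of 29 genes of the amino acid stress response 19 were called lower and 2 higher (median -0.51). The arginine transporter Slc7a1 stood at 198, 184 and 174 CPM at 10-13 weeks and 84.2, 84.2 and 68.4 CPM at 20 months, a log2 change of -1.23 (SE 0.158, adjusted p = 1.4e-05). The serine synthesis enzyme Psat1 fell by 1.52, the transcription factor Atf3 by 1.70 and the large amino acid transporter Slc7a5 by 0.96. Without 20 months replicate 3, 11 of the list were called lower. The unfolded protein response gave 8 of 22 lower and 0 higher (median -0.23), with the chaperone Hspa5 at 1566, 1593 and 1615 CPM at 10-13 weeks and 1019, 1013 and 1204 CPM at 20 months, a log2 change of -0.56 (SE 0.101, adjusted p = 0.000349), and its cofactor Dnajc3 down by 0.33. Heat shock genes gave 3 of 20 higher and 4 lower (median -0.05), with Hspb1 up by 0.60 and Hspb8 down by 0.92. Proteasome genes gave 0 of 31 higher and 4 lower (12.9%, beside 18.8% of all genes tested, median -0.07), such as Psmd3 (-0.34). Their 4 lower calls became 1 without 10-13 weeks replicate 3 or with only the 6 libraries fitted, and 2 without 20 months replicate 1 or 2 or with the 12 high glucose libraries. Those of heat shock genes became 2 without 10-13 weeks replicate 2 or 20 months replicate 1 or 2. The hypoxia list gave 2 of 19 higher and 5 lower (median -0.22), with the repressor Bhlhe40 down by 0.88.

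Immediate early genes, which serum and stress switch on within minutes, gave 14 of 29 called lower and 0 higher (median -0.68). The transcription factor Myc stood at 88.6, 66.3 and 87.6 CPM at 10-13 weeks and 27.6, 26.5 and 29.9 CPM at 20 months, a log2 change of -1.53 (SE 0.194, adjusted p = 1.44e-05). Nr4a3, an orphan nuclear receptor, stood at 18.4, 20.4 and 75.2 CPM at 10-13 weeks and 3.24, 5.94 and 4.7 CPM at 20 months, a log2 change of -3.01 (SE 0.514, adjusted p = 0.000262). Its relative Nr4a1, among the 10 largest decreases above a mean log2 CPM of 1, fell from 57.7, 25.5 and 189 to 9.25, 9.95 and 8.59 CPM, a log2 change of -3.28, which was -2.155 without 10-13 weeks replicate 3. In both receptors 10-13 weeks replicate 3 was far above the other younger libraries, which were themselves above all older ones. Srf, the serum response factor, fell by 0.68.

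Interferon response genes gave 11 of 38 lower and 2 higher (median -0.30). Bst2, or tetherin, which holds virus particles at the cell surface, stood at 10.9, 19.3 and 40.7 CPM at 10-13 weeks and 3.4, 2.59 and 1.35 CPM at 20 months, a log2 change of -3.23 (SE 0.684, adjusted p = 0.00147). Irf1, an interferon-induced transcription factor, fell by 0.73 and Oasl2 by 0.81. The 11 lower became 5 without 10-13 weeks replicate 3 and 6 without 20 months replicate 3 or with only the 6 libraries fitted. Antigen presentation gave 2 of 25 higher and 5 lower (median 0.14), led by the class I gene RT1-A1, at 25.4, 32.6 and 41.3 CPM at 10-13 weeks and 4.78, 3.2 and 3.62 CPM at 20 months (log2 change -3.07), whose reads overlap the near-identical RT1-A2 and are uncertain. The 5 lower, 20% of the list beside 18.8% of all genes tested, became 3 without 10-13 weeks replicate 3 or 20 months replicate 1.

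Complement genes split, with 6 of 24 higher and 6 lower (median 0.23). C7, a subunit of the membrane attack complex, stood at 489, 354 and 773 CPM at 10-13 weeks and 30.7, 112 and 37.2 CPM at 20 months, a log2 change of -3.16 (SE 0.615, adjusted p = 0.000759). The protease C1s fell by 1.67. Both surface regulators named by the rule moved apart, Cd59 up by 1.31 and Cd55 to a log2 change of -1.499. Prostaglandin and nitric oxide genes gave 5 of 21 higher and 6 lower (median 0.01), with the subunits of the nitric oxide receptor Gucy1a3 (2.59) and Gucy1b3 (1.32) higher and prostacyclin synthase Ptgis (-1.16) lower, and 3 were called lower without 20 months replicate 3. Cardiac and mesenchymal transcription factors gave 6 of 39 higher and 9 lower (median -0.20). The epicardial factor Wt1 fell by 1.96, the forkhead factor Foxp1 by 1.02 and Twist1 by 0.83, while Snai2, a driver of mesenchymal transition, rose by 1.34. The 9 lower became 5 without 10-13 weeks replicate 1.

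Several of the largest changes lay outside these groups. Trh, the precursor of thyrotropin-releasing hormone, rose from 0.217, 1.03 and 1.09 to 13, 39.2 and 26.5 CPM, a log2 change of 4.89 (SE 0.524, adjusted p = 2.9e-06). S100b, a calcium-binding protein abundant in glia, chondrocytes and fat, rose from 1.46, 1.25 and 0.775 to 10.7, 13.3 and 19.6 CPM, a log2 change of 3.55 (SE 0.3, adjusted p = 1.43e-07), and is itself a member of the Schwann cell list given above, where Sox10 was near 0. The vesicle GTPase gene Rab3b (3.59), the collectin Colec11 (3.56), the membrane protein Mal2 (3.44) and the detoxifying cytochrome Cyp1a1 (3.35) completed the 10 largest increases among genes with a mean log2 CPM of at least 1. Ace, the angiotensin-converting enzyme, fell from 26.1, 13.7 and 6.29 to 0.797, 0.507 and 0.973 CPM, a log2 change of -4.17 (SE 0.584, adjusted p = 4.42e-05), and the protocadherin Dchs1 fell by 3.33. The rule that named these genes asks for that level and for groups that do not overlap, and Pdgfc, with a larger change, lies below it.

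Whether the age change differed between glucose levels was tested directly, as the change in high glucose minus that in normal glucose. With the 24 libraries taken as independent, edgeR called 0 of 13806 genes (247 at an unadjusted p under 0.05), and DESeq2 also called 0 (261). Equal numbers at an age marked pairs of normal and high glucose libraries in the data, and a fit with these pairs as a block called 16 genes (0.116%), 14 with a positive and 2 with a negative difference. Of these, 8 belong to the cholesterol list and 2, Fasn and Acsl3, to fatty acid synthesis. A limma fit with the pairs as a random block called 0 (1105 at an unadjusted p under 0.05).

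In high glucose the cholesterol list gave 8 of 29 called lower and 1 higher (median -0.20), where normal glucose gave 19 lower and 0 higher (median -0.58). The 8 became 5 without 10-13 weeks replicate 3 or 20 months replicate 1 and 4 without 20 months replicate 3. Dhcr7 (ENSRNOG00000020776, chromosome 1, 217018916-217034904), the last enzyme of cholesterol synthesis, stood in high glucose at 52.6, 59.3 and 53.2 CPM at 10-13 weeks and 42.1, 63.3 and 50.3 CPM at 20 months, with a log2 change of -0.09 (SE 0.197, adjusted p = 0.768). In normal glucose it stood at 73.5, 76.6 and 70.5 CPM at 10-13 weeks and 36, 48.7 and 47.1 CPM at 20 months, with a log2 change of -0.74 (SE 0.197, adjusted p = 0.00663). The groups overlapped in high glucose and were separate in normal glucose, and the paired difference was 0.65 on the log2 scale (SE 0.0887, adjusted p = 0.00681).

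Other enzymes of the pathway also had a less negative change in high than in normal glucose. Cyp51, the lanosterol demethylase, changed by -0.34 in high and -0.84 in normal glucose, with a paired difference of 0.50 (adjusted p = 0.0148). The isomerase Idi1 gave -0.18 and -0.63, with a difference of 0.46 (adjusted p = 0.0236), and its reads may include those of the overlapping Wdr37. The decarboxylase Mvd gave -0.07 and -0.63, with a difference of 0.56 (adjusted p = 0.0247). Fasn, the fatty acid synthase, was lower at both levels, from 693, 689 and 698 to 346, 465 and 443 CPM in high and from 756, 734 and 730 to 274, 339 and 374 CPM in normal glucose, with a difference of 0.44 (adjusted p = 0.0225). The sterol carrier Stard4 was called lower in high glucose (log2 change -0.63).

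Over the 29 cholesterol genes the paired difference was positive for 28, with a median of 0.37, beside -0.003 over all genes. This list is not independent of the 8 calls it holds. The calls were not stable to leaving out both libraries of 1 pair, which left 1 to 25 genes called. Without 20 months replicate 2 it was 1 gene, none of the 16, and without 20 months replicate 3 it was 25. A fit without 1 pair also holds fewer libraries, and the cause was not tested. The difference was positive for 27 or 28 of the 29 genes in each of those 6 fits, with medians from 0.28 to 0.46. The fits share most of their libraries and the genes were measured in the same ones. These counts are therefore descriptive and no separate evidence for a difference. A negative difference was called for Fchsd1 (-0.61, adjusted p = 0.0236) and Ehbp1l1 (-0.32, adjusted p = 0.04), and reads of Fchsd1 may include those of the overlapping Rell2. Their age changes were -0.56 and -0.25 in high glucose and 0.02 and 0.07 in normal glucose, of which that of Ehbp1l1 in high glucose passed the test (adjusted p = 0.0466), though in 5 of its 14 alternatives only (adjusted p from 0.0179 to 0.17). The sterol element, searched as TCACNCCAC, was in 0 of 20 matched promoters of the list and in 1.18% of those of tested genes.

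**Figure D5:**
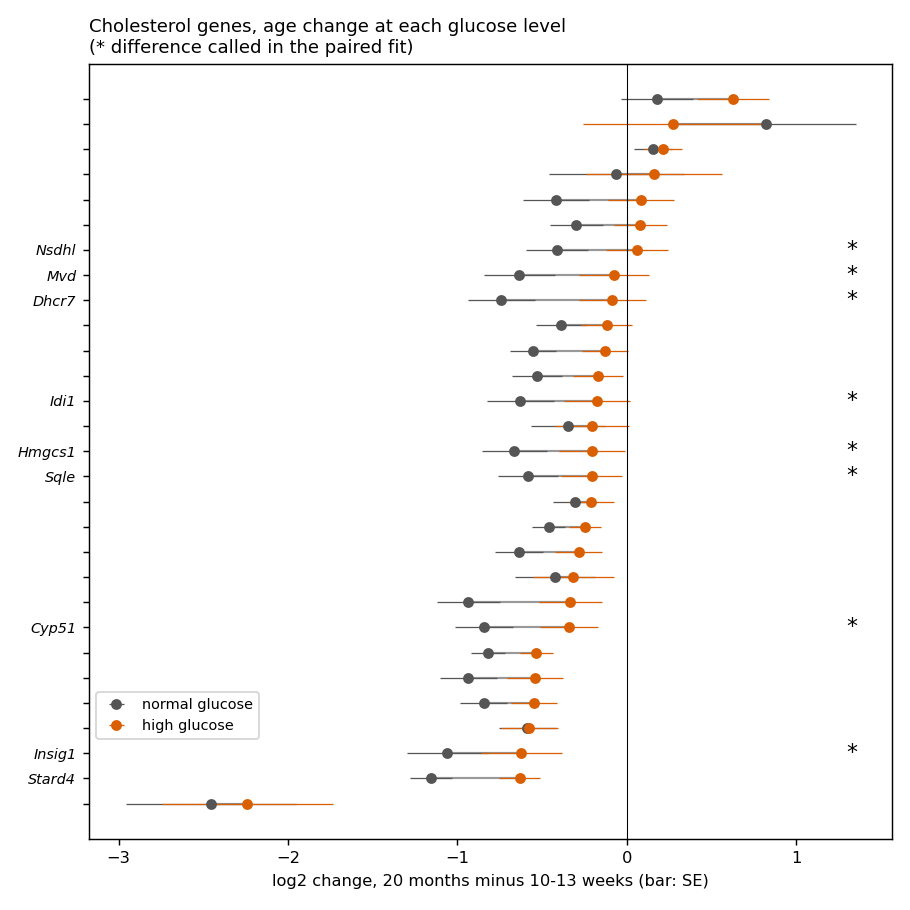
Log2 change between 20 months and 10-13 weeks for the 29 tested genes of the cholesterol list in normal glucose (grey) and high glucose (orange), with the SE as bars and names for the genes described in the text; stars mark the 8 genes whose difference was called in the paired fit. The orange point lies to the right of the grey one for nearly every gene, and 19 genes were called lower in normal against 8 in high glucose.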

How the data were processed

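RNA sequencing gave 24 libraries, and the 6 in high glucose at 20 months and 10-13 weeks enter the comparison of age. The authors deposited a table with a raw count and an FPKM value (fragments normalised for transcript length and depth) for each of 30957 genes. The counts are whole numbers without normalization, and the deposited FPKM values were not used. HISAT2 2.0.4, StringTie 1.3.0, edgeR and the build Rnor_6.0 are named in the submitters' processing notes. The annotation release and the strandedness of the counting are not given in the sources used here, so genes that overlap on opposite strands may share reads.

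The tools were edgeR 4.0.16 and R 4.3.3. By filterByExpr, with a minimum count of 10 and a total of at least 15, 13806 genes were kept. The robust quasi-likelihood fit had one mean for each group, TMM scaling and 24 libraries. Tests were two-sided, and a call needs an adjusted p (Benjamini-Hochberg, over all genes tested) under 0.05. All adjusted p-values are edgeR's unless another tool is named. The SE is the size of the log2 change over the root of F. Genes were named by a rule: the 10 largest called changes per direction with a mean log2 CPM of at least 1 and groups that do not overlap, the members of each list with the lowest adjusted p (at most 4), some fixed genes, and up to 5 called genes per direction for the difference between glucose levels, here applied to the paired fit, which was chosen after its calls were seen. Some genes that the rule names are not reported here. The members, the 43 functional and 10 cell type lists and the rule were chosen with earlier results of these data known. The fit was tested on simulated counts.

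After group means were taken off, same-numbered libraries of the same age in normal and high glucose correlated across genes at 0.368 to 0.494 and differently numbered ones at -0.281 to -0.121, so equal numbers were taken as pairs in the fit of the difference between glucose levels. Same-numbered libraries of the 2 ages correlated at -0.027 to 0.056 and were not. Promoters and their sequences are RefSeq's on GRCr8, matched by symbol for 9570 tested genes. Alternatives were DESeq2 1.42.0, limma 3.58.1, other scalings, no filter, fewer libraries, the replicate block and leaving out each library.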

Additional observations from a re-analysis of the deposited data

Results flagged for a closer look

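The age change differed between glucose levels for 16 genes when same-numbered normal and high glucose libraries were treated as pairs, and each is given as the change in high glucose minus that in normal glucose, on the log2 scale. In the cholesterol list the differences were 0.65 for Dhcr7, 0.56 for Mvd, 0.50 for Cyp51, 0.47 for the sterol dehydrogenase Nsdhl, 0.46 for Idi1, 0.46 for Hmgcs1, which makes the precursor of mevalonate, 0.44 for Insig1 and 0.38 for the epoxidase Sqle. In fatty acid synthesis they were 0.44 for Fasn and 0.46 for the acyl-CoA synthetase Acsl3.

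Outside these lists the differences were 1.37 for the protease Adamts15, 0.92 for the tyrosine phosphatase Ptprv and 0.70 for the angiotensin II receptor Agtr1a. A difference of 2.78 for C2, a complement gene, rests on 20 counts at 20 months and 4 at 10-13 weeks in high glucose and on 1 normal glucose library, 10-13 weeks replicate 3 at 1.667 CPM beside 0.1036 and 0.1605 CPM in replicates 1 and 2 (log2 change -1.31 in normal glucose), and it belongs to the lower counted of 2 table entries of that name. The negative differences were -0.61 for Fchsd1 and -0.32 for Ehbp1l1. The fit without pairs called 0 of the 16.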

How the results depend on the processing

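The 5123 genes called with age ranged from 4006 to 5332 over all alternatives: 5247 with DESeq2, 5107 and 5080 with RLE and upper quartile scaling, 4697 with no filter, 4423 and 4582 with 6 and 12 libraries, 4789 with limma and 4006 to 4395 without 1 library. With the replicate number as a block 5332 were called. For the difference between glucose levels, the replicate block raised the calls from 0 to 16, limma and every other alternative gave 0, and leaving out 1 pair, an alternative chosen after seeing the data, gave 4, 9 and 1 without 10-13 weeks replicates 1, 2 and 3, and 2, 1 and 25 without 20 months replicates 1, 2 and 3. The cause was not tested. Of the 182 genes followed, 164 kept direction and side of the threshold under every alternative. Reversed signs all belonged to changes that did not pass the test: with upper quartile scaling Arrdc4 (0.027) and Runx2 (0.009), and without 1 library Arrdc4 (-0.108 to 0.069), Runx2 (-0.163 to 0.087), Postn (-0.074 to 0.186), Agtr1a (-0.159 to 0.437), Il6 (-0.058 to 0.757), Dhcr7 (-0.254 to 0.045) and Mvd (-0.156 to 0.054). Of 43 lists, 27 kept their count within 1.5 times throughout. In the 150 bases nearest the start, 100 before to 50 after it, TTTGAA was in 70% of the spindle promoters and 4.75% of those of tested genes. In the 150 bases before the start, a window added after seeing the data, it was in 36.7% and 5.3%. Genes under 1 CPM rest on few counts.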
